A study of Mus musculus with 6 samples.

Results

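The guanylate-binding proteins (GBPs) and immunity-related GTPases (IRGs) are 2 families of interferon-induced enzymes, and 10 of their mouse genes were followed here. They are Gbp2, Gbp3, Gbp5, Gbp6 and Gbp7 among the GBPs, and Igtp, Irgm1, Irgm2, Iigp1 and Tgtp1 among the IRGs. They were picked by gene name from the 54532 genes of the table. The choice was made with the contrast between the groups known, so the levels of the 10 in that contrast are a description and carry no test. The 6 libraries come from mouse cells that the labels name as primary fibroblasts of the lung, 3 of a group called NC and 3 of a group called calumenin KD. Their sample descriptions use WT and KO for the same libraries, the series text names knockout and knockdown as alternatives, and neither the strain and age of the animals nor the agent used against calumenin is stated there. The study asked how calumenin, a calcium-binding protein of the secretory pathway, bears on senescence and fibrosis signalling in fibroblasts. The labels do not say whether the libraries of a group are separate cultures, so p-values measure the spread between these libraries, which may be technical.

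GBPs are large GTPases related to dynamin that assemble on intruding bacteria, on the vacuoles of parasites such as Toxoplasma and on membranes of the cell, where they expose the intruder to other defences. IRGs are smaller GTPases that are especially numerous in the mouse. The effector IRGs (Iigp1, also called Irga6, and Tgtp1, also called Irgb6) load onto and break vacuoles, while the regulatory IRGs (Irgm1, Irgm2 and Igtp, also called Irgm3) sit on the cell's own membranes and hold the effectors inactive there. Interferon gamma, acting through GAS elements, and type I interferon, acting through ISRE elements, are the known inducers of both families.

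Calumenin RNA was checked first. Calu stood at 220, 227 and 225 FPKM (fragments per kilobase of gene, scaled to sequencing depth) in NC1, NC2 and NC3 and at 14.6, 12.6 and 13.1 FPKM in KD1, KD2 and KD3, or 6.0% of the NC mean. Depth, recovered from the FPKM steps, was 15907164 to 18312888 reads per library. KD1 stood apart. Mitochondrial genes took 2.56% of its reads and 1.60% to 1.97% in each other library, and values without it are given where they matter. Of 11 fibroblast markers 8 were tested, of which 3 were called higher and 3 lower, but Lum had 0 reads, Dcn at most 0.022 FPKM and Thy1 at most 0.17 FPKM, so these 3 did not mark the cells. The 10 macrophage markers summed to between 9.66 and 10.5 FPKM in NC and between 5.82 and 9.01 FPKM in KD, almost all from Cd68, Cd14 and Lyz2. Their part in the results was not tested. The defining macrophage genes Ptprc, Csf1r and Itgam had at most 0.026 FPKM and Adgre1 had 0 reads in any library. Endothelial markers (7, at most 0.21 FPKM summed), epithelial markers (7, at most 0.24) and lymphocyte markers (9, at most 0.91) were near 0, and the 6 mural markers summed to 40.6 to 54.9 FPKM, nearly all from Cspg4. In bulk RNA, fewer cells of a type and less RNA per cell cannot be told apart.

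All 5 GBP genes were lower in every KD library than in any NC library, and Gbp3 was by far the most abundant of them. Gbp3, a plus-strand gene spanning bases 142560026 to 142573209 of chromosome 3 (mm10), had 49.0, 49.4 and 47.5 FPKM in NC1, NC2 and NC3. It had 5.36, 3.59 and 3.35 FPKM in KD1, KD2 and KD3. The groups lay far apart, and KD1 was the highest of its group. Means were 48.6 ± 0.99 and 4.10 ± 1.10 FPKM (SD, 3 libraries each), an 11.9-fold difference, or -3.30 on the log2(FPKM + 1) scale (SE 0.14).

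Gbp7, which lies beside Gbp3 on the same chromosome at 142530342 to 142550149, had 5.72, 6.07 and 5.52 FPKM in the NC libraries and 0.972, 0.710 and 0.442 FPKM in the KD libraries. It spread more in KD than in NC, with KD1 highest and KD3 lowest, and KD kept 12.3% of the NC mean. Gbp2, which is anchored in membranes by a lipid tail, had 2.82, 2.63 and 2.48 FPKM in NC and 0.687, 0.672 and 0.540 FPKM in KD. That is 24.0% of the NC mean, from 318 reads in NC and 83 in KD.

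Gbp5 and Gbp6 had the lowest FPKM of the 10 in both groups. Gbp5, which is known for promoting inflammasome assembly, had 1.30, 1.52 and 1.22 FPKM in NC and 0.0733, 0.136 and 0.0802 FPKM in KD. In reads these were 139, 160 and 128 against 9, 15 and 9, so the KD values rest on few reads although the groups did not approach each other. Gbp6, on chromosome 5, had 0.565, 0.602 and 0.498 FPKM in NC and 0.109, 0.142 and 0.129 FPKM in KD, from 158 and 39 reads in all. Both were below the filter of a mean of 1 FPKM over the 6 libraries and were left out of the fit across genes. The 8 others passed that filter.

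All 5 IRG genes were also lower in every KD library than in any NC library, and 4 of them stood above 35 FPKM in every NC library. Igtp, on chromosome 11 at 58199556 to 58207591 (plus strand), had 65.2, 62.6 and 64.7 FPKM in NC and 14.7, 13.0 and 12.8 FPKM in KD. The 3 KD libraries were close together, and KD kept 21.1% of the NC mean, a log2(FPKM + 1) difference of -2.17 (SE 0.07). Irgm2, whose annotated span on chromosome 11 (58199618 to 58222782, plus strand) overlaps that of Igtp, had 45.0, 45.2 and 43.4 FPKM in NC and 16.4, 12.7 and 11.5 FPKM in KD. KD1 was highest here too, and KD kept 30.4%. Irgm1, the regulatory IRG also known for its part in autophagy and in resistance to mycobacteria, lies on the minus strand of chromosome 11 at 48861968 to 48871683. It had 36.6, 35.1 and 35.1 FPKM in NC and 15.4, 12.7 and 13.3 FPKM in KD. With 38.8% of the NC mean kept, a 2.57-fold difference, Irgm1 was the member that differed least in proportion.

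Of the effector IRGs, Iigp1 on chromosome 18 at 60376029 to 60392627 had 60.3, 62.8 and 57.3 FPKM in NC and 15.6, 10.6 and 8.68 FPKM in KD. Its KD libraries were spread widely, from 14.4% of the NC mean in KD3 to 25.9% in KD1. Tgtp1, on chromosome 11 at 48985327 to 48994172, had 6.82, 7.26 and 5.12 FPKM in NC and 2.93, 1.60 and 1.35 FPKM in KD. The highest KD library (KD1) was still below the lowest NC library (NC3), and KD kept 30.6% of the NC mean.

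**Figure D1:**
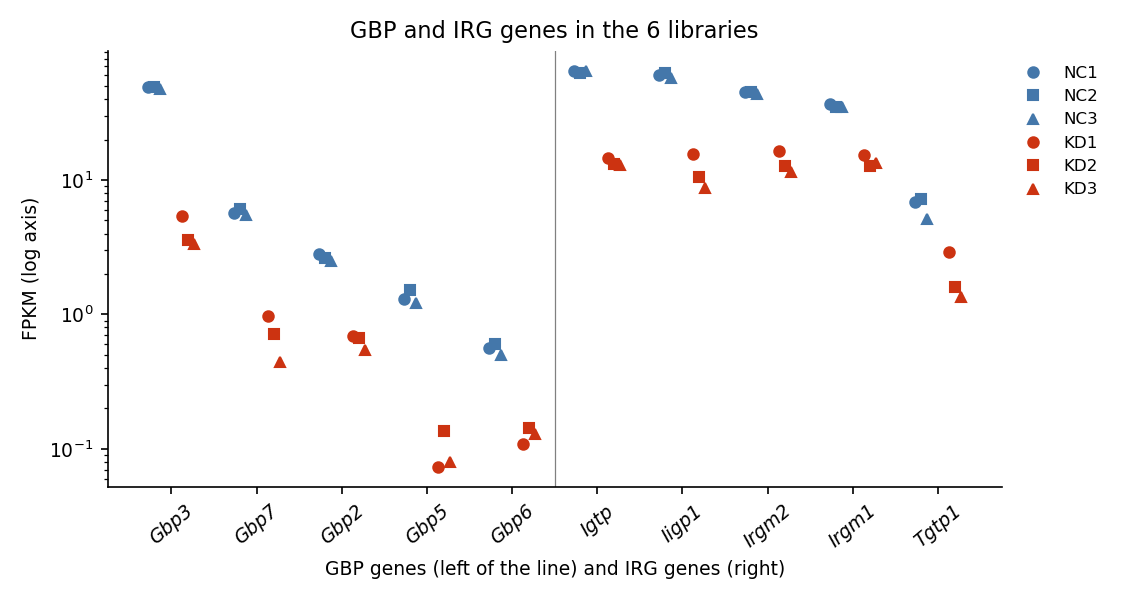
FPKM of the 10 genes in each library on a log axis, with GBP genes left of the line and IRG genes right of it, NC libraries in blue and KD libraries in red. In each gene the 3 red points lie below the 3 blue ones, from Igtp at 65.2 FPKM in NC1 down to Gbp5 at 0.0733 FPKM in KD1.

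Counted together, all 10 genes had no overlap between the groups. Beside them, 14.7% of the 28280 genes with a read and 22.9% of the 12299 genes tested lay wholly lower in KD. All 8 that entered the fit were called lower by limma at an adjusted p under 0.05, beside 13.6% of the 12299 genes tested. These counts follow from how the genes were chosen. The median log2(FPKM + 1) difference of the 8 was -1.83, beside 0.01 over all genes tested, and the scale understates differences of genes near 1 FPKM. On recovered reads, where no pseudocount of that size enters, voom put Gbp2 at -2.05 (log2, SE 0.20) where the FPKM scale gave -1.16, and Gbp7 at -3.08 where it gave -2.00. For Gbp3 the 2 scales were close (-3.59 and -3.30).

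Summed over the 5 GBP genes the level went from 58.9 ± 1.54 to 5.66 ± 1.38 FPKM (SD, n = 3), or 9.61% of NC, and over the 5 IRG genes from 211 ± 4.5 to 54.4 ± 9.30 FPKM, or 25.8% of NC. Gene by gene, the GBPs kept 7.18% to 24.0% and the IRGs 19.3% to 38.8%, so the ranges of the families overlap.

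The order of levels was not the same in both groups. In NC, Igtp and Iigp1 led with overlapping values, followed by Gbp3, Irgm2 and Irgm1, each separated from the next. Then came Tgtp1 and Gbp7, which overlapped, and Gbp2, Gbp5 and Gbp6, again each separated. In KD the top 4 were Irgm1 (13.8 FPKM), Igtp (13.5), Irgm2 (13.5) and Iigp1 (11.6), and each of these overlapped its neighbour in the order. Gbp3 came next at 4.10 FPKM, with no overlap with Iigp1 above it. At the bottom Gbp7 and Gbp2 overlapped, as did Gbp6 and Gbp5. The 4 abundant IRG genes, which stood between 35.6 and 64.2 FPKM in NC, were thus within 11.6 to 13.8 FPKM in KD. The place of Iigp1 in both orders, and its part in these ranges, depends on its deposited length of 3121 bases, since GENCODE M21 gives 5823 exonic bases. With the same reads the longer length would lower its FPKM, but reads over the added bases were not counted, so the change is not known.

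Replicate spread was wider in KD for each of the 10 genes, with a median coefficient of variation of 22.9% in KD and 4.73% in NC. KD1 was the highest KD library in 8 of the 10, the exceptions being Gbp5 and Gbp6, which had the fewest reads in KD (33 and 39). Among all genes tested KD1 was the highest KD library in 42.3%, among those called lower in 50.8%, and among those called lower with a log2 difference of -1 or less in 65.7%. KD1 also had the highest Calu of the KD group (14.6 FPKM), and whether this bears on the members was not tested. Without KD1 the log2 difference moved from -3.30 to -3.47 for Gbp3, from -2.31 to -2.53 for Iigp1 and from -1.35 to -1.57 for Tgtp1.

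Near-identical copies limit 2 of the 10 genes. In GENCODE transcripts 73.1% of the 100-base stretches of Tgtp1 also occur in another gene, 70.3% in Tgtp2, and for Gbp6 the shares were 64.5% in all, 59.0% with the predicted gene Gm43302 and 36.3% with Gbp10. Gm43302 itself had 9 reads in NC and 10 in KD. For Igtp and Irgm2 the shared part was small (5.16% and 3.01%), partly because 162 exonic bases of theirs overlap on the genome. Gbp7 shared a stretch with the predicted gene Gm43802 (9.59%), which had 0 reads. For the other 5 members at most 0.694% was shared. How reads matching several copies were counted, and whether strand was used, is not stated, so these levels are uncertain. Taken as a sum, Tgtp1 and Tgtp2 had 13.7, 15.0 and 11.9 FPKM in NC and 4.65, 2.69 and 2.65 FPKM in KD, or 24.6% of NC. Gbp6 and Gbp10 together had 4.42, 4.71 and 5.32 FPKM in NC and 1.03, 0.610 and 0.541 FPKM in KD, or 15.1%. The deposited length behind the FPKM equalled the exonic length in GENCODE M21 for the 9 members other than Iigp1.

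Since the members moved together, their upstream sequences were set side by side. RefSeq windows of 300 bases (250 before and 50 after the start site, GRCm38.p6) were found for 8 of the 10 members, Gbp3 having 2. An ISRE core, taken as GAAA, any 2 bases and GAAA again and searched on both strands, was present in 8 of the 9 windows, beside 3.44% of all 32851 windows, and only the second Gbp3 window lacked it. The GAS core TTCNNNGAA, which reads the same on both strands, was in 5 of 9 windows, beside 8.3% of all. In the 9 windows of other GBP and IRG genes (Ifi47 included), the ISRE core was in 5 and the GAS core in 3. Ifi47 and 9930111J21Rik2, which both fell, had neither core. Among tested genes the ISRE core was in 7.78% of windows of genes called lower, 2.46% of genes called higher and 2.59% of the rest, and in 33.5% of the 161 windows of genes called lower with a log2 difference of -1 or less, which include members. The GAS core was in 7.53%, 6.23% and 6.69% of those windows and in 9.94% of the 161, so its shares lay close together. A match describes the letters and is not evidence of binding.

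The 110 bases before the start site are shown for the 4 IRG members with a window, all but Iigp1. In 3 of them both cores lie next to each other, and Irgm1 is shown for contrast. Capitals mark the matches, and each runs 5′ to 3′ in the direction of the gene. Positions are chr11:58199446-58199555 (plus strand) for Igtp, chr11:58214867-58214976 (plus) for Irgm2, chr11:48992247-48992356 (minus) for Tgtp1 and chr11:48871421-48871530 (minus) for Irgm1.
Igtp: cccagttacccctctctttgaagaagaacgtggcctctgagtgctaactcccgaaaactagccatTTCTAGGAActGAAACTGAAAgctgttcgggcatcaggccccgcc
Irgm2: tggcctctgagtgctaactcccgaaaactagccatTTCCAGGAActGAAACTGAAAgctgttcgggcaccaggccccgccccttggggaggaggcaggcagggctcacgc
Tgtp1: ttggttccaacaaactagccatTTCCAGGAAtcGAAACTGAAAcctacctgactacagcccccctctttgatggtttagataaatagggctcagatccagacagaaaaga
Irgm1: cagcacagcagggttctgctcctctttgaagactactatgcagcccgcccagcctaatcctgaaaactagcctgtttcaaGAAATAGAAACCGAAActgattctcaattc

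In Igtp, Irgm2 and Tgtp1 a GAS core is followed by an ISRE core after 2 bases, in the same orientation. This arrangement, searched on both strands, was present in 5 of the 32851 windows (0.0152%), and all 5 belong to IRG genes of chromosome 11, the other 2 being Tgtp2 and Gm12185. It was searched for after the sequences had been seen, and some of the 5 share their flanks. The longest common run in the 250 upstream bases was 114 bases between Tgtp2 and Gm12185 and 55 between Igtp and Irgm2, and 11 to 27 bases in the other 8 pairs, beside 9 to 11 between each of the 5 and Irgm1. A run ends at the first differing base, so it understates likeness. Around the cores Tgtp1 reads nearly the same as Tgtp2 and Gm12185, with scattered differences. The 5 windows therefore cannot be counted as 5 separate occurrences of the arrangement. Between Igtp or Irgm2 and Tgtp1, Tgtp2 or Gm12185 the runs were 11 to 20 bases. Whether these windows share an origin was not tested. These 5 genes kept from 19.2% (Tgtp2) to 58.0% (Gm12185) of the NC mean, so the same arrangement went with unequal differences. Irgm1 had 2 overlapping ISRE matches and no GAS match in its window.

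Of the 4 GBP members with a window (Gbp6 had none), Gbp3, Gbp7 and Gbp2 are shown for contrast, since their ISRE matches lie on the opposite strand and close to the start site. Gbp5 is not shown, as its ISRE match begins 165 bases before the start site and its GAS matches 245 and 52 bases before it. The stretches are chr3:142559934-142560043 for Gbp3, chr3:142530226-142530335 for Gbp7 and chr3:142620553-142620662 for Gbp2, all on the plus strand.
Gbp3: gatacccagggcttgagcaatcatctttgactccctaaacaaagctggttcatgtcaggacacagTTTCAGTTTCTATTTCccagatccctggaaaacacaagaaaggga
Gbp7: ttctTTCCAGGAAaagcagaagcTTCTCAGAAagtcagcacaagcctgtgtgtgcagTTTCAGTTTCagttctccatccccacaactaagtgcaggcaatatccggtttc
Gbp2: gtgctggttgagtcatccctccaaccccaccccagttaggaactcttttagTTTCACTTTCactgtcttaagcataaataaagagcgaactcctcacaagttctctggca
Gbp3, which kept 8.43% of its NC level, had 2 overlapping ISRE matches from 45 bases before the start site. Gbp7 had an ISRE match 53 bases before the start site and GAS matches at 106 and 87 bases. Gbp2 had an ISRE match at 59 bases and no GAS match in its window.

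**Figure D2:**
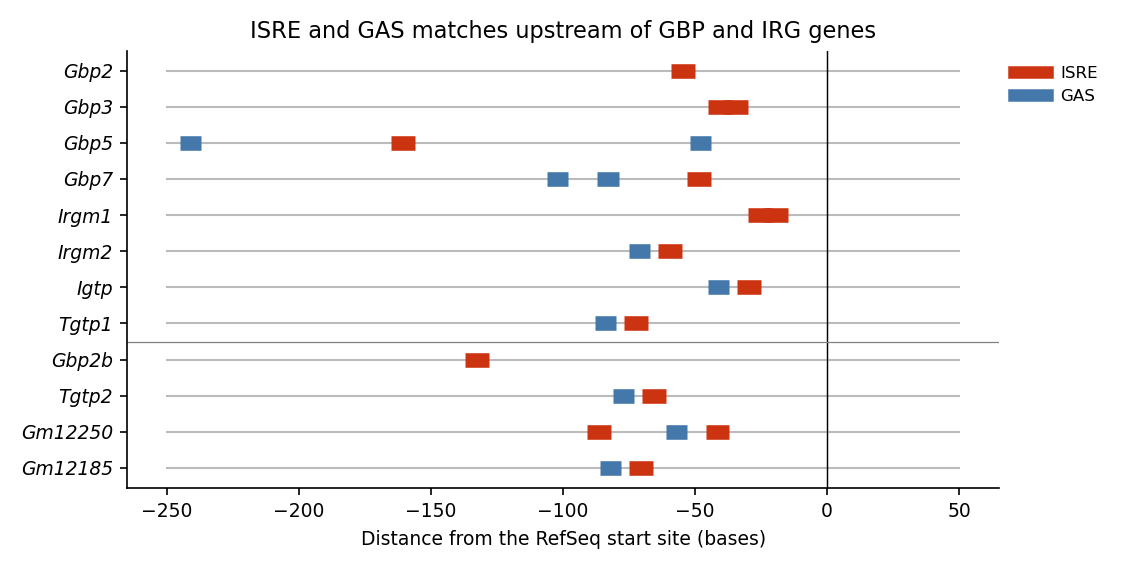
Positions of ISRE matches (red) and GAS matches (blue) in windows from 250 bases before to 50 bases after the RefSeq start site, for the 8 members with a window (above the line, with the first of the Gbp3 windows) and for 4 relatives (below). The 4 are those of the 9 relatives with a window that have a match before the start site. In Irgm2, Igtp, Tgtp1, Tgtp2 and Gm12185 a blue block stands directly before a red one, and in Gbp5 the matches are far apart.

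Most of the relatives outside the 10 fell as well. Among 6 other GBP genes, 4 were tested and 3 fell, beside 13.6% of all tested genes. Gbp10 fell from 4.26 ± 0.50 to 0.600 ± 0.28 FPKM (SD, n = 3; log2 difference -1.73, SE 0.15, limma adjusted p = 0.000546), Gbp9 from 5.52 to 1.26 FPKM (-1.54, adjusted p = 0.000546) and Gbp2b from 2.27 to 0.553 FPKM (-1.07, adjusted p = 0.00361). Of the 100-base stretches of Gbp10, 73.5% also occur in another gene (60.1% in Gbp6). Its reads may thus not be separate from those of Gbp6. Gbp11, annotated as a polymorphic pseudogene, had 1.57, 1.33 and 1.52 FPKM in NC and 1.47, 0.606 and 0.703 FPKM in KD. KD1 lay within the NC range, and the limma adjusted p was 0.163 with all libraries and 0.0126 without KD1. Gbp4 was not tested (221 reads in NC and 147 in KD), nor was Gbp8, which ran the other way with 2 reads in NC and 13 in KD.

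Of 10 other IRG genes 8 were tested and 7 fell. The effector IRG Irgb10, listed as Gm12250, fell from 34.4 ± 1.96 to 3.08 ± 0.74 FPKM (SD, n = 3), a log2 difference of -3.13 (SE 0.13, limma adjusted p = 3.2e-05). KD kept 8.96% of its NC level, beside 19.3% to 38.8% for the IRG members. Gm12250 is annotated as a processed pseudogene of 1274 bases, on which its FPKM rests, and its RefSeq window lies upstream of that annotated span. Gm4951 fell from 26.1 to 6.42 FPKM (-1.90, limma adjusted p = 0.000546), Tgtp2 from 7.12 to 1.37 FPKM (-1.78, adjusted p = 0.000171) and F830016B08Rik from 3.81 to 0.623 FPKM (-1.57, adjusted p = 0.000315). Of the 100-base stretches of Tgtp2, 76.8% also occur in Tgtp1, so the reads of these 2 genes may not be separate. The near-identical 9930111J21Rik1 and 9930111J21Rik2, which share 70.5% and 48.3% of their 100-base stretches with other genes, fell from 2.72 to 0.659 and from 6.36 to 2.51 FPKM. Gm12185 fell from 1.71 to 0.995 FPKM (-0.45, limma adjusted p = 0.0213). Leaving out NC1, NC2, NC3, KD2 or KD3 lost that call (adjusted p between 0.0595 and 0.0815), as did a replicate block (0.0559) and no filter (0.0608). Irgq, a divergent IRG-like gene that is not known to respond to interferon, went from 5.13 ± 0.12 to 6.54 ± 0.78 FPKM (SD, n = 3), with a limma adjusted p of 0.0521. The adjusted p was 0.00537 without KD1, 0.048 with a filter of 5 FPKM, 0.045 with equal-total scaling and 0.0338 with voom. Gm5431 (158 reads in NC, 40 in KD) and the testis gene Irgc1 (26 and 11) were not tested.

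Other interferon-induced GTPases were lower too. All 5 that were tested fell: the dynamin-like antiviral GTPase Mx1 from 15.2 to 1.01 FPKM (log2 difference -3.02, limma adjusted p = 2.1e-05), Mx2 from 15.8 to 2.67 FPKM (-2.21, adjusted p = 5.9e-05), and the very large GTPases Gm8995 from 7.56 to 0.386 FPKM, Gm4070 from 10.3 to 4.5 FPKM and Gvin1 from 4.15 to 1.70 FPKM. Gm1966 and Gm8979 had 17 and 29 reads in NC and 0 and 3 in KD. Gm8995, Gm1966 and Gm8979 are annotated as unprocessed pseudogenes, and Mx2 as a polymorphic pseudogene. Atlastins, the relatives of GBPs that fuse tubules of the endoplasmic reticulum and are not interferon genes, gave 1 lower and 1 higher call in 3, beside 24.5% of tested genes called in either direction. Atl3 fell from 33.4 ± 2.06 to 25.7 ± 2.27 FPKM (SD, n = 3; limma adjusted p = 0.0188, lost without NC1, NC2 or KD2 at 0.0666 to 0.0803). Atl2 rose from 7.80 ± 0.28 to 10.4 ± 1.65 FPKM (adjusted p = 0.0463, lost without NC1, NC2, NC3 or KD2 at 0.093 to 0.145 and with a pseudocount of 5, no filter, quantile scaling, no trend or a replicate block at 0.0503 to 0.106), and Atl1 had 1.24 and 1.68 FPKM (limma adjusted p = 0.133, and 0.0431 with voom, which called it higher).

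**Figure D3:**
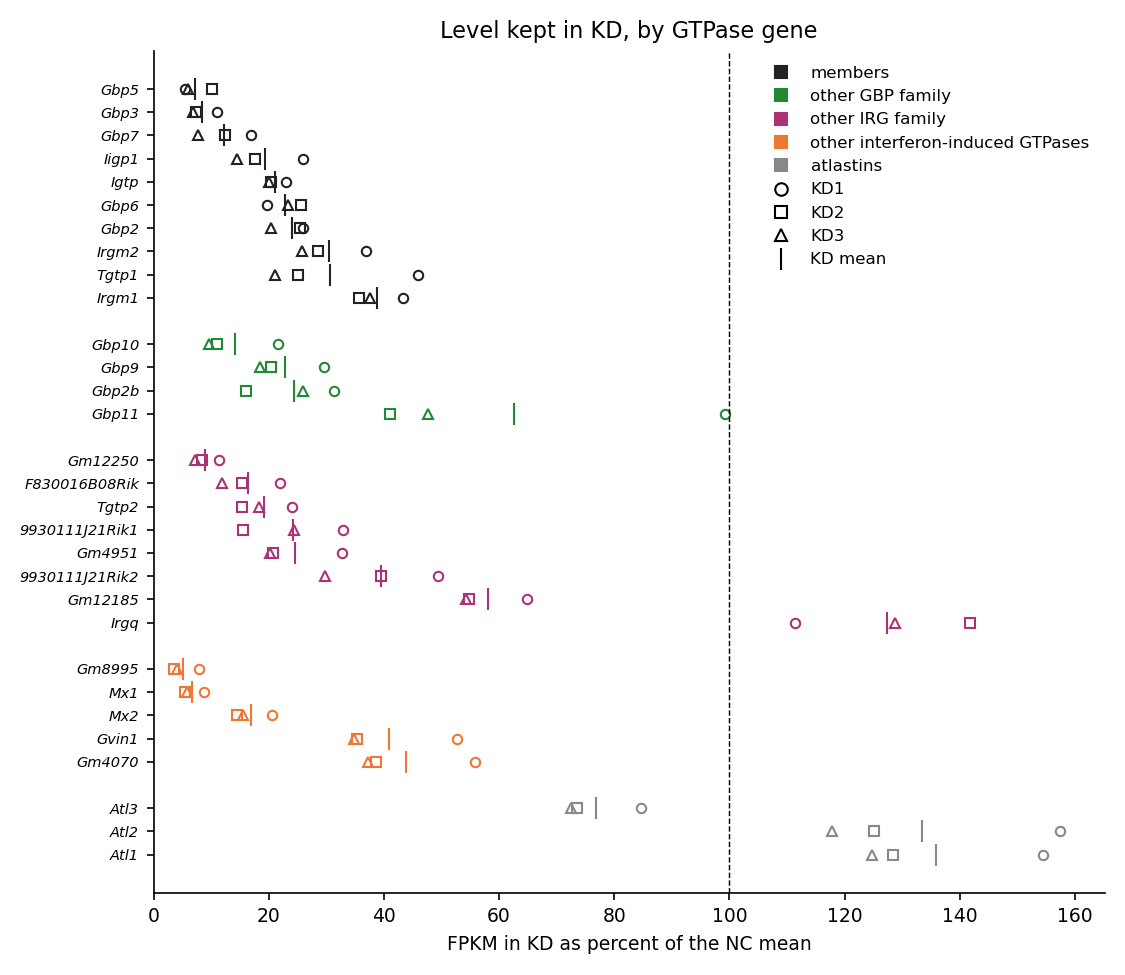
Level of each GTPase gene in KD1 (circle), KD2 (square) and KD3 (triangle) as a percent of its NC mean, with the KD mean as a bar and a dashed line at 100%, for the 10 members and for the tested genes of the other lists. The members run from 7.18% (Gbp5) to 38.8% (Irgm1), and KD1 is often the rightmost point, most of all in Gbp11.

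Genes of the interferon pathway were counted by their step in it. No receptor or kinase gene was called by limma out of 8 tested, beside 24.5% of all tested genes called in either direction. Of the 8, 3 had an unadjusted p under 0.05 and voom called 1, Tyk2, higher. Jak1, the kinase shared by the interferon receptors, had 39.5 ± 0.56 and 37.8 ± 2.50 FPKM (SD, n = 3; limma adjusted p = 0.504), and the interferon gamma receptor chain Ifngr2 had 16.2 and 14.1 FPKM (adjusted p = 0.098). Without KD1, Tyk2 and Ifnar2 rose (0.42 and 0.30 on the log2 scale, limma adjusted p = 0.00335 and 0.00722) and Jak2 fell (-0.34, adjusted p = 0.0235). These 3 were named after their values were seen.

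Transcription factor genes of the interferon response were among those that fell. Irf7, a master regulator of type I interferon genes, fell from 99.98 ± 3.27 to 12.5 ± 0.96 FPKM (SD, n = 3; log2 difference -2.91, SE 0.07, limma adjusted p = 3.3e-06). Stat2 fell from 53.6 to 18.7 FPKM (-1.47, limma adjusted p = 2.3e-05) and the MHC class I activator Nlrc5 from 11.01 to 5.55 FPKM (-0.88). Irf1 and Irf9, named after their values were seen, also fell: Irf1 from 11.8 to 8.34 FPKM (-0.45, limma adjusted p = 0.00438) and Irf9 from 16.7 to 12.03 FPKM (-0.44, adjusted p = 0.00531). Not every factor gene did. Irf2, also named after its value was seen, was not called (5.54 and 5.34 FPKM, limma adjusted p = 0.765). Irf8 was not tested (2 reads in NC and 0 in KD). Interferon ligands were near or below detection: 16 of 21 had 0 reads in all libraries, Ifng among them. Ifnb1 had 4, 7 and 7 reads in NC and 0, 2 and 0 in KD, and Ifna4 had 5, 7 and 6 against 1, 1 and 0. Neither passed the filter, and without it limma gave adjusted p = 0.034 and 0.0078. Among 6 feedback inhibitors 2 fell, beside 13.6% of all tested genes: Usp18, the ISG15 protease that blocks type I receptor signalling, from 68.9 to 12.9 FPKM (-2.34, limma adjusted p = 2.2e-05), and Socs1 from 3.10 to 1.90 FPKM (-0.50, adjusted p = 0.014, lost without NC2, NC3 or KD2 at 0.0563 to 0.0636). Socs3, named after its value was seen, was not called with all libraries (limma adjusted p = 0.324). Without KD1 it was called higher (0.42, limma adjusted p = 0.00131).

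The machinery that places the GTPases and acts with them was counted in the same way, beside 13.6% of all tested genes called lower, 10.9% called higher and 24.5% called in either direction. IRGs and GBPs reach vacuoles with the help of the conjugation system that attaches ATG8 proteins to membranes. Of 10 genes of that system 3 fell and 1 rose: Atg5 went from 22.5 to 16.4 FPKM (log2 difference -0.45, limma adjusted p = 0.0321), Gabarapl1 from 15.9 to 11.4 (-0.45, adjusted p = 0.0191), Atg7 from 3.58 to 2.47 (-0.40, adjusted p = 0.0144) and Map1lc3b from 10.7 to 12.8 FPKM (0.24, adjusted p = 0.0218). These calls were fragile: 0 to 2 of the list were lower without NC1, NC2, NC3, KD2 or KD3 (0 without NC1 and 2 without KD3), 5 were lower without KD1, and Map1lc3b was called only in the full set and without KD1 among the sets that leave out a library, and was lost with a replicate block (adjusted p = 0.0578). Atg5 was lost also with no filter (0.0785) and quantile scaling (0.052). Of 5 prenylation enzyme genes, whose products attach the lipid tail of some GBPs, 1 rose, a share below that of all tested genes called in either direction. It was the farnesyltransferase subunit Fntb, from 8.19 to 10.7 FPKM (0.34, limma adjusted p = 0.0139, lost without NC1, NC3 or KD2 at 0.0555 to 0.0622).

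Of 9 adaptors that mark or recognise damaged vacuoles 6 fell and 1 rose (all tested genes, 13.6% and 10.9%). Galectins, which bind sugars exposed on broken vacuoles, were among them: Lgals9 fell from 123 ± 3.49 to 44.4 ± 3.37 FPKM (SD, n = 3; log2 difference -1.45, limma adjusted p = 5.7e-05), Lgals8 from 33.9 to 16.3 FPKM (-1.01, adjusted p = 8.5e-05) and Lgals3 from 149 to 97.6 FPKM (-0.61, adjusted p = 0.00586). The ubiquitin ligase Trim21 fell from 9.51 to 4.14 FPKM (-1.03, limma adjusted p = 0.000219). The 1 that rose was the autophagy receptor Nbr1, named after its value was seen. In this list 4 were lower without NC1 or NC2. Of 4 tested inflammasome genes, which GBPs are known to serve by freeing bacterial products, 2 rose and 1 fell (all tested genes, 10.9% and 13.6%). Casp1 rose from 23.5, 21.5 and 25.0 FPKM in NC to 65.7, 54.0 and 56.4 FPKM in KD (1.29, SE 0.09, limma adjusted p = 0.000266), and Casp4, the cytosolic sensor of lipopolysaccharide also called caspase-11, rose from 12.6, 11.7 and 11.4 to 29.4, 24.8 and 23.6 FPKM (1.06, SE 0.09, adjusted p = 0.000546). For both, every KD library was above every NC library, as for 2623 of the 12299 tested genes. This was the opposite of the members. The pore-forming Gsdmd fell from 2.40 to 1.35 FPKM (-0.54, limma adjusted p = 0.0118, and 0.0521 without NC1), and without KD1 2 of this list fell, the other being Aim2, which was named after its value was seen.

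**Figure D4:**
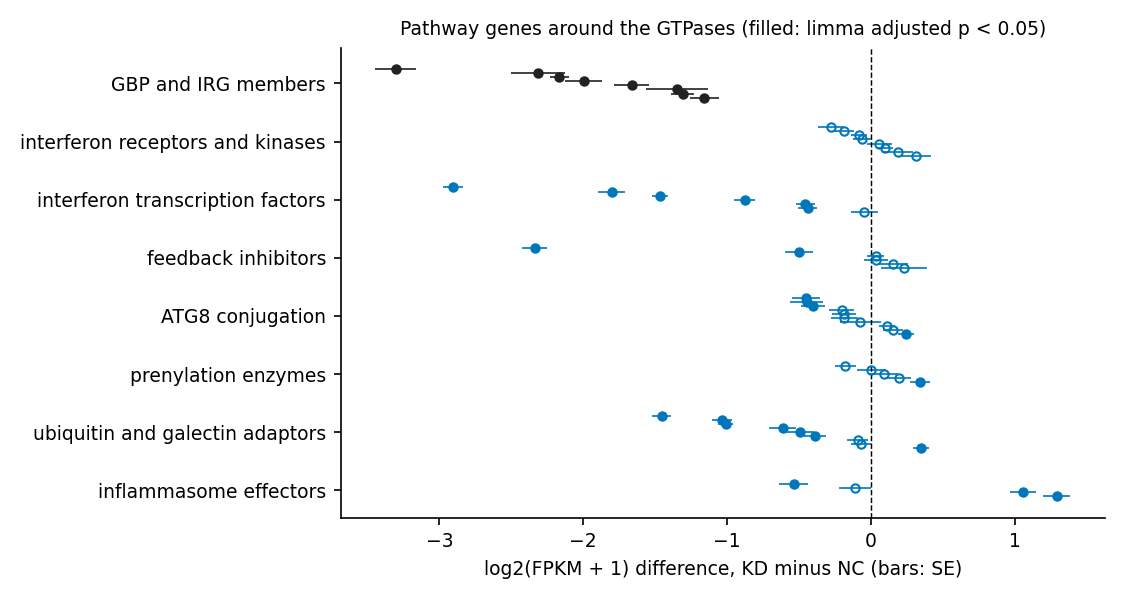
Difference in log2(FPKM + 1), KD minus NC, with its SE, for each tested gene of the members (black) and of 7 pathway lists (blue), filled where limma adjusted p was under 0.05. Receptors and kinases lie around 0, transcription factors reach -2.91 (Irf7), and Casp1 and Casp4 lie to the right at 1.29 and 1.06.

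The members lie in clusters, and calls among the genes next to them differed in number between loci. Of 72 genes outside the GBP and IRG lists within 250 kb of a member, 31 were tested, 7 fell and 2 rose, beside 24.5% of all tested genes called in either direction. The largest differences were in Ifi47 on chromosome 11, itself an IRG gene (also called Irgd) that the lists had left out, which fell from 12.6 ± 0.37 to 3.12 ± 0.57 FPKM (SD, n = 3; -1.74, limma adjusted p = 0.000165), Gm4841 on chromosome 18, named Ifgga3 in RefSeq, which fell from 2.75 to 0.351 FPKM (-1.48, adjusted p = 0.000781), and BC023105 on chromosome 18, from 6.41 to 2.43 FPKM (-1.15, adjusted p = 0.0101). Beside Iigp1 on chromosome 18, 4 of 7 tested neighbours were called, 3 lower and 1 higher, and on chromosome 11, 4 of 17 were called, all 4 lower. The 3 lower on chromosome 18 were Gm4841, BC023105 and Gm5970 (named after its value was seen). BC023105 and Gm5970 are annotated as pseudogenes, and 0.186% of the 50-base stretches of Iigp1 also occur in Gm5970. Relatives such as Ifi47 are thus counted as neighbours here, and the difference between loci cannot be told apart from their part in it. Beside the chromosome 3 cluster 5 neighbours were tested and 1 rose, Pdlim5 (named after its value was seen), from 6.61 to 11.2 FPKM, and beside Gbp6 on chromosome 5 neither of 2 tested neighbours was called by limma.

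**Figure D5:**
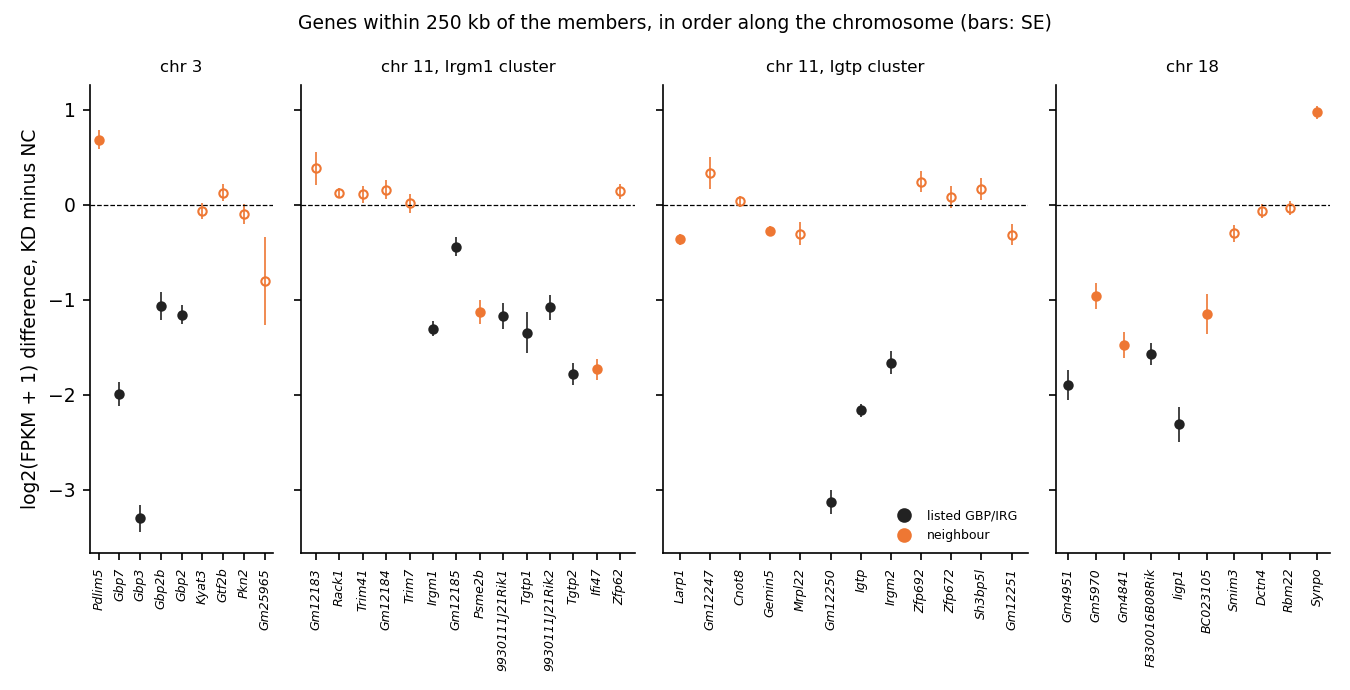
Difference in log2(FPKM + 1), KD minus NC, with its SE, for tested genes in their order along chromosomes 3, 11 and 18 (filled where limma adjusted p was under 0.05), with listed GBP and IRG genes in black and their neighbours within 250 kb in orange. All black points lie below 0, down to -3.30 for Gbp3, and 9 of the 29 orange points are filled.

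Genes with a like profile over the 6 libraries were sought by Pearson r to the mean of the members' centred log2(FPKM + 1) values. The 5 highest outside the members were Tdrd7, Ifit2, Rnf213, Parp14 and Trim30d, with r from 0.9997 to 0.9999. With 2 groups this measure mostly follows the group difference: 490 tested genes, members included, had r over 0.98. Their order over the KD libraries, with KD1 highest and KD3 lowest as in most members, follows from how they were picked. Rnf213, a giant ubiquitin ligase, went from 128, 132 and 127 FPKM in NC to 48.1, 40.8 and 38.2 FPKM in KD. Parp14, a mono-ADP-ribosyltransferase, went from 29.4, 29.8 and 28.8 to 9.28, 7.40 and 6.82 FPKM. Tdrd7 had 66.9, 67.9 and 65.1 FPKM in NC and 38.4, 34.7 and 33.1 FPKM in KD, so a like profile went with a smaller difference. Ifit2 went from 26.8 to 12.5 FPKM and Trim30d from 27.0 to 6.64 FPKM.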

How the data were processed

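Paired-end Illumina NovaSeq reads were aligned with HISAT2 2.0.5, per the labels' protocols. The submitters' processing notes name mm10 as build. Which counter, strand setting and annotation were used is not stated. The authors deposited 1 FPKM value per gene and library, with gene positions and lengths. FPKM times length came in whole steps in each library for 100% of values (tolerance 0.01), and these steps were taken as reads, with 3 reads as the detection limit. The depth implied by the step size was 0.987, 0.987 and 0.996 of the summed reads in NC1, NC2 and NC3. In KD1, KD2 and KD3 it was 1.01, 1.02 and 1.02. The deposited FPKM thus carry a small further scaling that differs between the groups, and its method is not stated. Titles gave the groups.

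The test was a linear model of group with an intensity trend on log2(FPKM + 1), fitted with limma 3.58.1 (R 4.3.3) to the 12299 genes whose mean reached 1 FPKM. P-values were adjusted by Benjamini-Hochberg over those genes, with a threshold of 0.05, and the code was tested on simulated data. The members, gene lists and naming rule were chosen with earlier results of these data known. The rule names Calu, the members, relatives with a read, up to 4 called genes of largest difference per pathway list (or the 2 highest in level), the 5 most alike profiles and 3 neighbours. The result for 1 listed gene is not reported here. Gbp1, Gvin2, Gvin3 and Gm17757 matched no row. Alternatives were pseudocounts of 0.1 and 5, no filter or one at 5 FPKM, scaling by equal totals, median ratios or quantiles, no trend, a replicate block, voom on recovered reads, and each library left out. Positions are as deposited, and 98.33% of the 54409 identifiers shared with GENCODE M21 had the same position there. Promoter windows are RefSeq's (GRCm38.p6). Tables used Python 3.11.15 and pandas 2.3.3, and plots matplotlib 3.10.9.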

Additional observations from a re-analysis of the deposited data

How the results depend on the processing

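The 8 tested members stayed lower and past the limma threshold in all 125 refits under the alternatives, while the median difference of all genes lay between -0.01 and 0.03 on the log2 scale. Without the filter, Gbp5 and Gbp6 entered and were called lower too. The members were chosen with this contrast known, so their calls follow from the choice. The refits describe only how far the members' values depend on the processing, and are no test of them. For 55 other genes, 44 of 862 refits lost a call, 6 gained one and 0 changed direction. Tyk2, Ifnar2, Jak2, Irf2, Socs3, Aim2 and Nbr1, named after their values were seen, are not among the 55. Over all genes 1344 were higher and 1672 lower. Leaving out 1 library gave 590 to 2572 higher and 923 to 2648 lower, with the highest counts without KD1, the lowest higher and lower counts without NC2, and changes of over 1.5 times also without NC1, NC3 or KD2. The titles share replicate numbers, but same-numbered libraries did not deviate together (r 0.08, -0.04 and 0.15), and with a replicate block 1050 genes were higher and 1383 lower. Few reads limit Gbp5, Gbp6, Gbp8 and the interferon ligands.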
